A study of Mus musculus with 19 samples.

Results

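Late OT-I CD8 T cells were compared with early SV40-I CD8 T cells low for PD1, LAG3 and CD39 by RNA sequencing. Each side had 3 libraries, chosen by the group labels, which together make up 6 of the 19 libraries of the series. The OT-I libraries held transgenic cells sorted on CD8 and the congenic mark Ly5.1 and taken on days 20 to 21 from mice with malignant liver lesions. The early libraries, here called marker-low, held transgenic SV40-I cells sorted on CD8 and the congenic mark Thy1.1 and taken on days 8 to 9. All mice were of the C57BL/6 strain, and no library of either group is labelled as treated. Day and receptor both differ between the groups. The gate differs too, since only the marker-low cells are labelled low for PD1, LAG3 and CD39. Time in the lesion, antigen specificity, transgenic line, congenic background and gate thus cannot be told apart. The column headings of the marker-low tables carry the letters KO, and those of the marker-high tables, used as context, carry WT. No label names a genotype, and a genotype effect cannot be told apart from the others either. Titles place the cells in liver lesions whereas the source field names splenocytes, so the tissue is known only as far as these labels go. Nothing in the labels says that the 3 libraries of a group came from separate animals, and p-values therefore measure spread between libraries. The other 9 ex vivo libraries entered the fit, and their levels are given as context. The spread within their groups thus also bears on every standard error and p-value. These 9 were 3 each of naive SV40-I cells, marker-high SV40-I cells of days 8 to 9 and SV40-I cells of days 20 to 21. The 4 cultured libraries were not used.

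OT-I cells carry a receptor for an ovalbumin peptide, and SV40-I cells carry a receptor specific for SV40 large T antigen. A CD8 T cell that meets its antigen induces immediate early transcription factors of the NR4A, EGR and AP-1 families within hours, secretes cytokines and chemokines, and enters division. Cells that are activated but no longer stimulated can persist as memory or effector cells with receptors for interleukin 7, cytotoxic granules and integrins, while lasting stimulation in tumours is known to bring inhibitory receptors and the transcription factor TOX.

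Levels are CPM, counts scaled to library size, and the 3 values of a group are given in the order of its replicate numbers. T cell genes were abundant in every library. Cd3e, a CD3 chain, stood at 2538, 2187 and 2701 CPM in the 3 OT-I libraries and 3132, 1767 and 2598 CPM in the 3 marker-low libraries. Cd8a, the CD8 alpha chain, stood at 1852, 1747 and 1927 CPM in OT-I versus 1672, 1122 and 1409 CPM in marker-low libraries. Of the 14 genes of the receptor complex and its signalling, none was lower in OT-I cells, and Cd8b1, the CD8 beta chain, was among those higher. Its log2 fold change, OT-I minus marker-low, was 1.17 ± 0.21 (edgeR quasi-likelihood test with Benjamini-Hochberg adjusted p = 0.00675). Total counts ran from 37006508 to 48274559 over the 6 libraries. Transcripts of other cells were uneven. The 12 hepatocyte genes, all detected in each of the 6 libraries, summed to 17.5, 925 and 1708 CPM in OT-I libraries and to 26.01, 56.2 and 12.5 CPM in marker-low libraries. The 9 macrophage genes summed to 338, 419 and 689 CPM in OT-I and to 2148, 8843 and 726 CPM in marker-low libraries, where the Kupffer cell genes Clec4f and Marco were at 0 in marker-low 3. Most of each sum was 1 gene, Lyz2, at 229, 320 and 568 CPM in OT-I versus 1524, 6507 and 620 CPM in marker-low libraries. All 9 macrophage genes had negative log2 fold changes, and Cd68 and Csf1r were called lower in OT-I cells. The 9 erythroid and platelet genes summed to 1858, 3390 and 1345 CPM in OT-I and 334, 232 and 422 CPM in marker-low libraries without overlap, with none at 0 and none called. Most of each sum came from the erythroid genes. The platelet genes were lower on average in OT-I libraries. Ppbp stood at 1.62, 1.64 and 1.1 CPM in OT-I versus 5.17, 49.8 and 2.51 CPM in marker-low libraries. Pf4 stood at 0.167, 0.554 and 0.907 CPM in OT-I versus 1.39, 9.99 and 0.803 CPM in marker-low libraries. Marker-low 2 also held 441 CPM of Mpo, a granule enzyme of neutrophil precursors, against at most 1.05 CPM in the other 5 libraries. In bulk RNA, fewer cells of a type and less RNA per cell cannot be told apart, and the part of these transcripts in the results was not tested beyond the fits given with them.

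**Figure D1:**
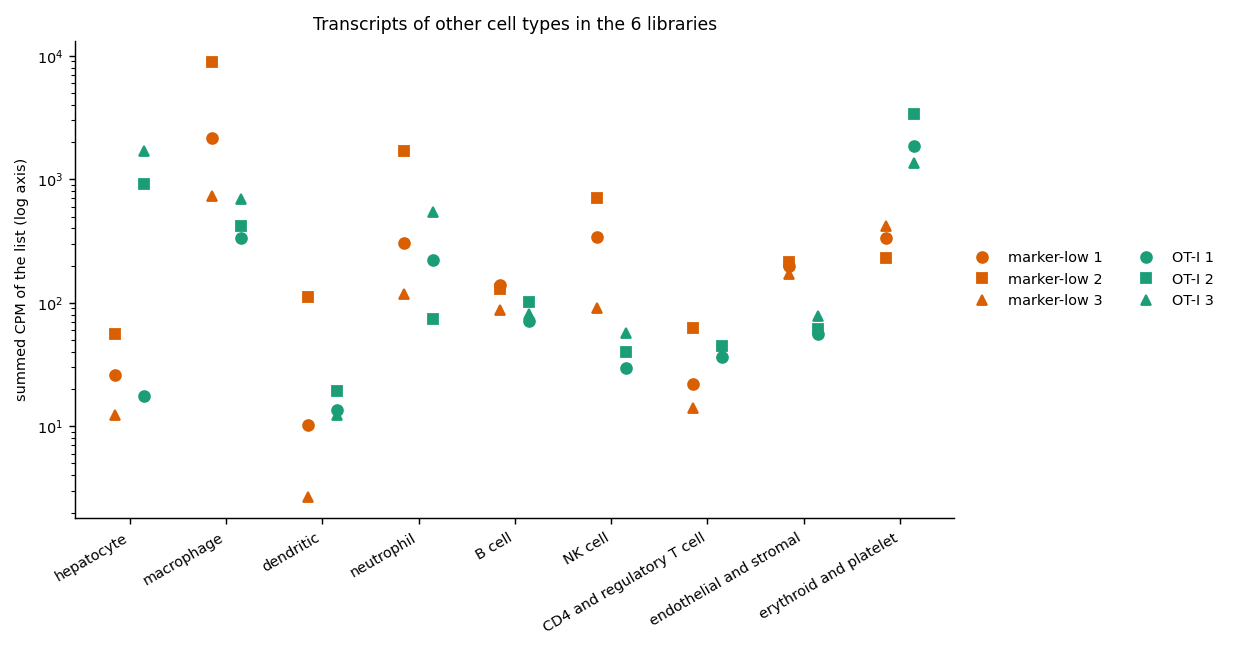
Summed CPM (log axis) of the marker genes of other cell types in each of the 6 libraries, with 1 symbol per library and colour for the group. OT-I 2 and 3 stand at 925 and 1708 CPM for hepatocyte genes, and marker-low 2 stands highest for macrophage genes at 8843 CPM.

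Of 16247 genes tested, edgeR called 522 higher and 670 lower in OT-I cells at an adjusted p under 0.05, or 3.21% and 4.12% of all genes and 7.34% in either direction. The libraries of the 2 groups did not overlap for 29.6% of all genes and for 1178 of the 1192 called. The median log2 fold change over all genes was -0.02. Genes called higher were led by cathepsin E, effector and homing receptors and the factor Id2. Genes called lower were led by receptor-induced transcription factors, the costimulatory receptor Tnfrsf9, chemokines, feedback inhibitors and mitotic genes.

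**Figure D2:**
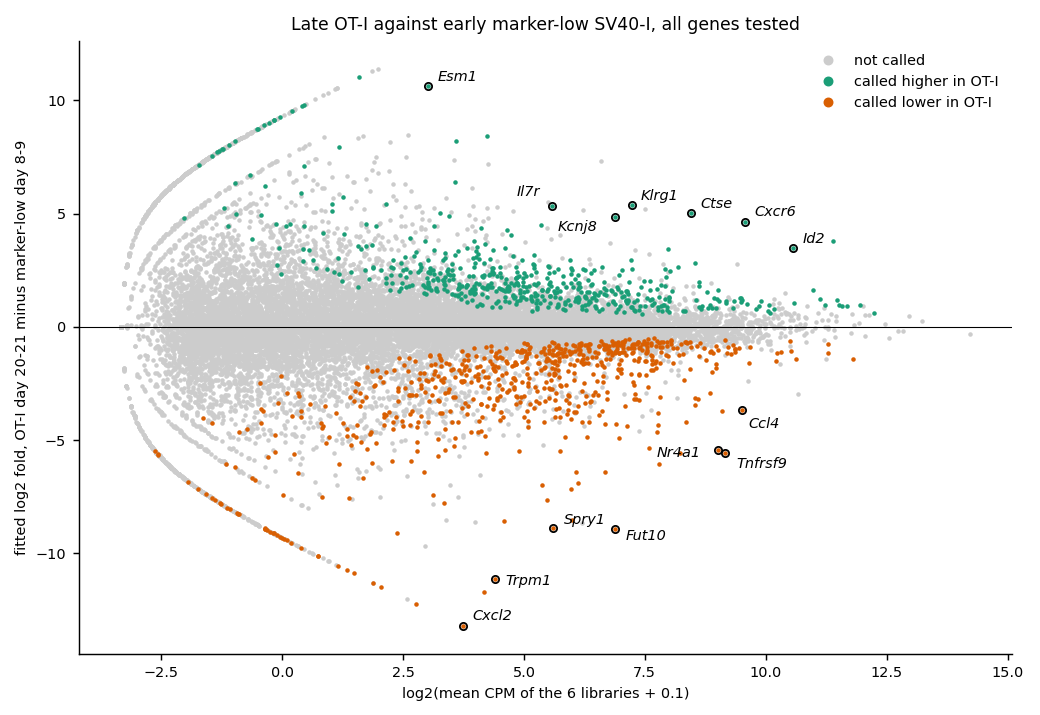
Fitted log2 fold change (OT-I minus marker-low, vertical) against mean level of the 6 libraries (log2 of CPM + 0.1, horizontal) for each of 16247 genes, coloured by call (522 higher, 670 lower), with 14 genes of the text ringed. Fitted values beyond about 10 belong to genes at or near 0 CPM in a group and depend on the prior count.

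Of 10 transcription factors of the NR4A and EGR families and related genes that T cell receptor signalling induces, 5 were lower in OT-I cells (Egr1, Egr2, Nfkbid, Nr4a1 and Nr4a2), none was higher, and the median log2 fold change was -3.28. The orphan nuclear receptor gene Nr4a1 (chromosome 15, 101254269 to 101274795, plus strand, GRCm38), a widely used readout of receptor signal strength, stood at 13.3, 38.9 and 17.7 CPM in the 3 OT-I libraries and 762, 1280.3 and 984 CPM in the 3 marker-low libraries. The lowest marker-low library was far above the highest OT-I library, and the log2 fold change was -5.44 ± 0.52 (adjusted p = 0.000191). Nfkbid (chromosome 7, 30421732 to 30428746, plus strand), an atypical inhibitor of NF-kB, stood at 92.1, 87.2 and 47.8 CPM in OT-I versus 463, 873 and 663 CPM in marker-low libraries, again without overlap (-3.14 ± 0.32, adjusted p = 0.000268). As list members chosen after their values were seen, Egr2, a zinc finger factor, stood at 6.24, 15 and 6.44 CPM in OT-I versus 311, 481 and 331 CPM in marker-low libraries. Egr2 changed by -5.34 ± 0.83 (adjusted p = 0.00323), and Egr1 changed by -3.42 ± 0.50 (adjusted p = 0.00255). Nr4a2 was near absent in OT-I cells at 0, 0.302 and 0.0216 CPM in OT-I versus 5.71, 7.6 and 7.6 CPM in marker-low libraries (-6.01 ± 1.00, adjusted p = 0.00646), and without OT-I 2 its fold change was -8.90. Nab2, a corepressor that EGR factors induce and that belongs to no list, was lower too (-3.68 ± 0.38, adjusted p = 0.000273). In the other SV40-I groups Nr4a1 averaged 58.2 ± 8.06 CPM (SD) in naive, 187 ± 80.5 CPM in marker-high and 27.8 ± 11.9 CPM in late SV40-I libraries (n = 3 each), and its 3 marker-low libraries lay above all 12 others. Nr4a2 was ordered differently, at 14.8 ± 3.19 CPM in marker-high and 27.6 ± 15.1 CPM in late SV40-I libraries, both above the marker-low mean of 6.97 ± 1.09 CPM.

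All 10 AP-1 genes had negative fold changes, with 4 called (Atf3, Fos, Fosb and Fosl1) and a median of -4.06. Fos (chromosome 12, 85473890 to 85477273, plus strand), the founding AP-1 subunit, stood at 5.74, 9.89 and 3.76 CPM in the 3 OT-I libraries and 228, 801 and 277 CPM in the 3 marker-low libraries. The groups were separated, and the fold change was -6.07 ± 1.02 (adjusted p = 0.00499). Marker-low 2, the library richest in macrophage transcripts, was also the highest for Fos, and without it the change was -5.28 and still called. Fosb stood at 0.405, 0.327 and 1.04 CPM in OT-I versus 19.2, 18.4 and 30.6 CPM in marker-low libraries. Fosb changed by -5.26 ± 1.02 (adjusted p = 0.00972). Atf3, a stress-induced partner of AP-1, stood at 0.405, 2.74 and 0.713 CPM in OT-I versus 20.8, 63.5 and 11.3 CPM in marker-low libraries (-4.63 ± 0.96, adjusted p = 0.0145). Over the marker-low libraries this was the order of the macrophage sum, and also of the hepatocyte, neutrophil, dendritic and NK cell sums. The calls of Fosb (without OT-I 2) and Atf3 (without OT-I 3) ended when 1 library at a time was left out, with edgeR adjusted p values from 0.0143 to 0.0684 over those fits. Atf3 moved from a log2 fold change of -4.63 to -5.76 without OT-I 2 or -3.64 without marker-low 2, and Fosb from -5.26 to -5.94 without OT-I 3.

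The promoters of Nr4a1 and Fos are shown because these genes led their lists and moved together. They run from 250 bases before to 50 bases after the annotated start (RefSeq, GRCm38.p6), 5′ to 3′ on the gene's strand, with capitals marking TGACG or its reverse complement, the half-site of the cAMP response element, on either strand.
Nr4a1, chr15:101266596-101266895, plus strand: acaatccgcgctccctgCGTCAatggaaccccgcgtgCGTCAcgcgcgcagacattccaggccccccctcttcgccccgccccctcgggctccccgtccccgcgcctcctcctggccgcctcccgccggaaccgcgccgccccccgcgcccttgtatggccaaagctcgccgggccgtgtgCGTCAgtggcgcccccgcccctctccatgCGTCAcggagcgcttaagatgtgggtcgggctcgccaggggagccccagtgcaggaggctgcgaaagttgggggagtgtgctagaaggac
Fos, chr12:85473640-85473939, plus strand: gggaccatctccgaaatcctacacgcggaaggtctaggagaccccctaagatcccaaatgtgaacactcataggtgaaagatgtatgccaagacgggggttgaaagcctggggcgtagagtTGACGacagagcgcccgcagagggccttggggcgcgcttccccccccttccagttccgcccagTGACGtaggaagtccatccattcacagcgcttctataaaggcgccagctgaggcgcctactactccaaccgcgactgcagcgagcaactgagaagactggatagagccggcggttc
The half-site was found 4 times in the Nr4a1 window and 2 times in the Fos window. Of the 9 called genes of the 2 lists 7 had promoter entries, and 9 of their 13 windows (69.2%) held it, against 20.8% of 32851 windows of the same length over all genes. These matches describe letters only.

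Costimulatory receptors split, and the smallest p belonged to a member lower in OT-I cells. Tnfrsf9 (chromosome 4, 150914562 to 150946102, plus strand), known as 4-1BB and induced on antigen contact, stood at 12.9, 29.1 and 28.1 CPM in the 3 OT-I libraries and 1217, 1115 and 1042 CPM in the 3 marker-low libraries. It had a fold change of -5.59 ± 0.39 (adjusted p = 1.96e-05). Its levels in marker-high and late SV40-I libraries were 1563 ± 218 and 1586 ± 299.6 CPM, and 19.5 ± 8.73 CPM in naive libraries, so that OT-I cells were near the naive level. Tnfrsf4, known as OX40, stood at 0.977, 1.36 and 1.17 CPM in OT-I versus 38.4, 19.8 and 6.69 CPM in marker-low libraries. Tnfrsf4 changed by -4.21 ± 0.93 (adjusted p = 0.0193). In the list of 11 costimulatory receptors 3 were lower (Cd27, Tnfrsf4 and Tnfrsf9) and 1 was higher, Tnfrsf25, a death-domain receptor, at 119, 101 and 111 CPM in OT-I versus 15.6, 10.7 and 15.8 CPM in marker-low libraries (2.97 ± 0.76, adjusted p = 0.0342), with a list median of 0.04. The calls of Tnfrsf4 (without OT-I 1, 2 or 3 or marker-low 1), Tnfrsf25 (without any 1 library) and Cd27 (without OT-I 1, 2 or 3 or marker-low 1 or 3) ended when 1 library at a time was left out, with edgeR adjusted p values from 0.0161 to 0.16 over those fits. Tnfrsf4 moved from a log2 fold change of -4.21 to -3.50 without marker-low 1.

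Of 13 feedback inhibitors 3 were lower (Dusp1, Rgs16 and Spry1), none was higher, and the median was -1.18. Spry1 (chromosome 3, 37639947 to 37644598, plus strand), an inhibitor of the Ras and MAP kinase pathway, stood at 0.0238, 0.0503 and 0.518 CPM in the 3 OT-I libraries and 84.6, 107 and 98.1 CPM in the 3 marker-low libraries. OT-I cells thus held almost no Spry1, and the fitted change was -8.88 ± 1.06 (adjusted p = 0.00128), or -11.25 without OT-I 3. Rgs16, a regulator of G protein signalling, stood at 0.0238, 0.654 and 0.367 CPM in OT-I versus 136, 160.3 and 87.1 CPM in marker-low libraries. Rgs16 changed by -8.51 ± 1.14 (adjusted p = 0.00138), or by -9.23 without OT-I 2. Both genes had been near 0 in naive cells, where Spry1 averaged 0 ± 0 and Rgs16 0.191 ± 0.259 CPM. Of 11 NF-kB genes only Nfkb1 was called, lower in OT-I cells (-1.47 ± 0.39, adjusted p = 0.0386), beside Nfkbia at -0.74 ± 0.22 (adjusted p = 0.0589), and the median was -0.88. The calls of Nfkb1 (without OT-I 1, 2 or 3 or marker-low 1 or 2) and Dusp1 (without OT-I 2 or 3 or marker-low 2) ended when 1 library at a time was left out, with edgeR adjusted p values from 0.0105 to 0.138 over those fits. Nfkb1 moved from a log2 fold change of -1.47 to -0.83 without marker-low 2, and Dusp1 from -3.002 to -1.86 without marker-low 2.

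Of 12 cytokine genes 6 were lower in OT-I cells (Csf2, Ifng, Il10, Il3, Tnf and Tnfsf8), none was higher, all 12 had negative fold changes, and the median was -2.98. Ifng (chromosome 10, 118441046 to 118445892, plus strand), the macrophage-activating interferon gamma, stood at 52.4, 59.4 and 29 CPM in the 3 OT-I libraries and 545, 325 and 329.9 CPM in the 3 marker-low libraries. Tnf (chromosome 17, 35199381 to 35202007, minus strand), tumour necrosis factor, stood at 25.8, 33 and 18.1 CPM in OT-I versus 177, 204 and 177 CPM in marker-low libraries. The groups did not overlap for either gene, with fold changes of -3.09 ± 0.57 (adjusted p = 0.00776) and -2.86 ± 0.48 (adjusted p = 0.00495). In the other SV40-I groups Tnf averaged 12 ± 4.74 CPM in naive, 27.7 ± 18.8 CPM in marker-high and 15.8 ± 3.37 CPM in late libraries, so that the 3 marker-low libraries were the highest of all 15. Among further list members, Il2, a T cell growth factor, stood at 2.69, 3.78 and 2.03 CPM in OT-I versus 32.5, 19 and 22.1 CPM in marker-low libraries without being called (-3.11 ± 0.99, adjusted p = 0.0725). Il3, a growth factor of myeloid cells, had no counts in OT-I libraries and 9.28, 2.61 and 2.64 CPM in marker-low libraries, at least 195-fold lower taking 3 counts over the group as the floor (adjusted p = 0.0334). The calls of Csf2 (without OT-I 2), Il10 (without any 1 library), Il3 (without any 1 library) and Tnfsf8 (without OT-I 1, 2 or 3) ended when 1 library at a time was left out, with edgeR adjusted p values from 0.0209 to 0.126 over those fits.

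Ccl4 (chromosome 11, 83662584 to 83664683, plus strand), an inflammatory chemokine, stood at 111, 102 and 102 CPM in the 3 OT-I libraries and 1763, 1027 and 1239 CPM in the 3 marker-low libraries, a change of -3.68 ± 0.31 (adjusted p = 0.000102). Ccl3, its neighbour, stood at 21.3, 12.9 and 15.7 CPM in OT-I versus 639, 299 and 305 CPM in marker-low libraries. Ccl3 changed by -4.64 ± 0.47 (adjusted p = 0.000268). Spread between replicates was small beside these differences. Of 7 chemokines 4 were lower (Ccl3, Ccl4, Ccl9 and Xcl1), 1 was higher, and the median was -3.68. Xcl1, which attracts cross-presenting dendritic cells, stood at 10.1, 16.9 and 10.6 CPM in OT-I versus 772, 430.1 and 560.2 CPM in marker-low libraries. Xcl1 changed by -5.55 ± 1.17 (adjusted p = 0.0155). The member that was higher was Ccl5, a late chemokine of effector and memory cells, at 5871, 3744 and 5348 CPM in OT-I versus 567, 155 and 376 CPM in marker-low libraries. Ccl5 changed by 3.77 ± 0.69 (adjusted p = 0.00761). Its late SV40-I mean of 5037 ± 1889 CPM was near the OT-I mean of 4988 ± 1108 CPM. The calls of Xcl1 (without OT-I 1, 2 or 3) and Ccl9 (without OT-I 1, 2 or 3 or marker-low 2) ended when 1 library at a time was left out, with edgeR adjusted p values from 0.0161 to 0.0865 over those fits. Ccl9 moved from a log2 fold change of -3.03 to -1.93 without marker-low 2.

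Of the 3 surface markers by which the early cells were labelled low, transcripts of PD1 and LAG3 were lower still in OT-I cells, and CD39 was not called. Selection by these markers bears on the marker-low side alone, since no OT-I label names them. Pdcd1 (chromosome 1, 94038305 to 94052553, minus strand), which encodes PD1, stood at 128, 75.6 and 109.7 CPM in the 3 OT-I libraries and 704, 512 and 370.1 CPM in the 3 marker-low libraries. The highest OT-I library was below the lowest marker-low library (-2.34 ± 0.37, adjusted p = 0.00351). Lag3 (chromosome 6, 124904361 to 124911705, minus strand), an inhibitory receptor for MHC class II, stood at 1.88, 2.29 and 1.38 CPM in OT-I versus 20.6, 12.5 and 11.8 CPM in marker-low libraries. Lag3 changed by -3.02 ± 0.46 (adjusted p = 0.00301). Entpd1 (chromosome 19, 40612366 to 40741602, plus strand), which encodes the ectoenzyme CD39, was not called, at 74.5, 87.4 and 109 CPM in OT-I versus 42.6, 54.3 and 12.8 CPM in marker-low libraries. Entpd1 had a fold change of 1.30 ± 0.50 (adjusted p = 0.126). Tox (chromosome 4, 6686353 to 6991557, minus strand), the HMG-box factor linked to exhaustion, stood at 19.4, 23.6 and 31.6 CPM in the 3 OT-I libraries and 134, 102 and 48.6 CPM in the 3 marker-low libraries. Its groups did not overlap, and it was lower in OT-I cells by a log2 fold change of -1.93 ± 0.36 (adjusted p = 0.00776). For scale, marker-high libraries averaged 2679 ± 666 CPM of Pdcd1 and 559.6 ± 190.2 CPM of Tox, and naive libraries 9.82 ± 4.08 and 103 ± 19.4 CPM, so the OT-I mean lay below the naive mean for Tox and above it for Pdcd1.

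Of 10 other inhibitory receptors tested only Ctla4 was called, lower in OT-I cells. Ctla4 (chromosome 1, 60887000 to 60915832, plus strand), a competitor of CD28, stood at 10.2, 10.1 and 2.92 CPM in OT-I versus 124, 87.4 and 122 CPM in marker-low libraries. Ctla4 changed by -3.85 ± 0.53 (adjusted p = 0.00148). Cd96 pointed the other way without passing (1.49 ± 0.42, adjusted p = 0.051), and the list median was -0.47. Of 11 exhaustion-linked transcription factors tested 4 were lower (Ikzf2, Irf4, Tox and Tox2) and 1 was higher (Rbpj), with a median of -0.76. Ikzf2, known as Helios, had 1 count over the OT-I libraries and 0.334, 0.934 and 2.18 CPM in marker-low libraries, a ratio of 155 (95% counting interval 27.5 to 6171) between the groups (adjusted p = 0.0116). Irf4, induced in proportion to receptor signal, stood at 16, 14.1 and 11 CPM in OT-I versus 118, 259.6 and 165 CPM in marker-low libraries (-3.73 ± 0.78, adjusted p = 0.0151), with marker-low 2 the highest. The calls of Ikzf2 (without OT-I 2), Irf4 (without OT-I 2 or 3), Rbpj (without OT-I 2 or 3 or marker-low 1, 2 or 3) and Tox2 (without OT-I 1, 2 or 3) ended when 1 library at a time was left out, with edgeR adjusted p values from 0.0142 to 0.135 over those fits.

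**Figure D3:**
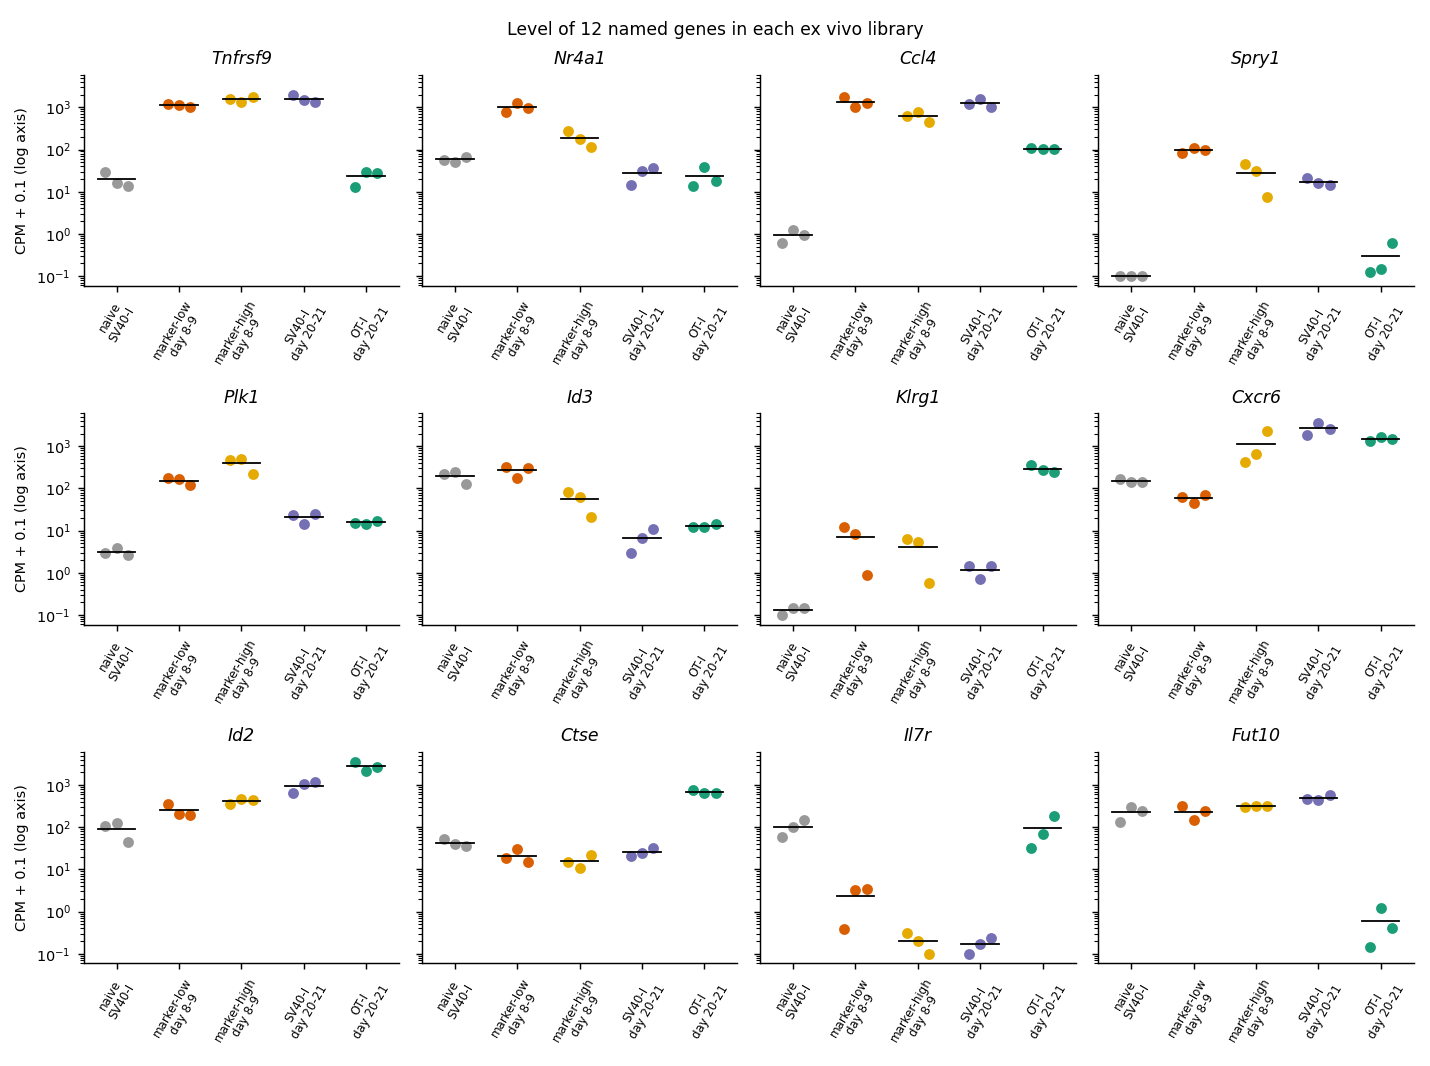
Level of 12 genes (CPM + 0.1, log axis) in each of the 15 ex vivo libraries, with 1 point per library and a bar at the mean of each group of 3. Tnfrsf9 lies at 12.9 to 29.1 CPM in OT-I and 1042 to 1217 CPM in marker-low libraries, while Cxcr6, Klrg1, Id2 and Ctse lie higher in OT-I than in marker-low libraries.

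Genes of naive and memory cells split. Of 17 such genes 5 were lower in OT-I cells, among them Ccr7, Dapl1, Id3 and Myb, 1 was higher, Il7r, and the median was -0.83. Il7r (chromosome 15, 9505788 to 9530176, minus strand), the interleukin 7 receptor that sustains resting T cells, stood at 31.7, 68.8 and 181 CPM in the 3 OT-I libraries and 0.283, 3.15 and 3.4 CPM in the 3 marker-low libraries. OT-I cells were higher in every library but varied among themselves (5.36 ± 1.01, adjusted p = 0.00862), and without OT-I 3 the change was 4.46. Id3 (chromosome 4, 136143497 to 136145755, plus strand), an inhibitor of E proteins found in naive and memory precursor cells, went the other way at 12.3, 12.4 and 14.1 CPM in OT-I versus 326, 176 and 299.97 CPM in marker-low libraries. Id3 changed by -4.37 ± 0.56 (adjusted p = 0.000974). Ccr7, a chemokine receptor that guides cells to lymph nodes, was lower as well, at 107, 81.6 and 133 CPM in OT-I versus 639, 874 and 931 CPM in marker-low libraries (-2.93 ± 0.80, adjusted p = 0.0434). The stem-like factors Tcf7 and Lef1 were not called. Tcf7 stood at 329, 407 and 277 CPM in OT-I versus 531, 582 and 685 CPM in marker-low libraries (-0.83 ± 0.81, adjusted p = 0.542). Its OT-I libraries all lay below its marker-low libraries, so the missing call does not show equal levels. Tcf7 varied widely in marker-high libraries (95.3, 71.8 and 1.59 CPM), whose spread also entered the fit. Lef1 changed by 0.20 ± 0.73 (adjusted p = 0.896), and its groups overlapped. Both groups stood far above the late SV40-I means of 1.93 ± 0.791 CPM for Tcf7 and 1.58 ± 1.27 CPM for Lef1. The calls of Ccr7 (without any 1 library), Myb (without OT-I 1 or 3 or marker-low 1, 2 or 3) and Dapl1 (without OT-I 1, 2 or 3 or marker-low 1 or 3) ended when 1 library at a time was left out, with edgeR adjusted p values from 0.0364 to 0.162 over those fits. Myb moved from a log2 fold change of -4.43 to -6.35 without OT-I 2 or -3.80 without marker-low 3. Without marker-low 2 the median of this list was 0.02, with 1 member higher and 3 lower.

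Of 10 effector transcription factors Id2 and Zfp683 were higher, none was lower, and the median was 1.38. Id2 (chromosome 12, 25093799 to 25097140, minus strand), the E protein inhibitor of effector cells and thus the counterpart of Id3, stood at 3485, 2222 and 2679 CPM in the 3 OT-I libraries and 348, 209.9 and 196 CPM in the 3 marker-low libraries. The lowest OT-I library exceeded the highest marker-low library, with a change of 3.48 ± 0.39 (adjusted p = 0.00043). Zfp683, known as Hobit and linked to tissue residency, stood at 46.8, 45.7 and 56.3 CPM in OT-I versus 4.09, 4.06 and 0.906 CPM in marker-low libraries. Zfp683 changed by 4.04 ± 0.62 (adjusted p = 0.0031). In late SV40-I libraries these genes averaged 964 ± 276 and 105 ± 60.6 CPM, below the OT-I mean of 2795 ± 639.5 CPM for Id2 and above that of 49.6 ± 5.85 CPM for Zfp683.

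Of 13 NK-type receptors and effector surface genes 6 were higher (Fasl, Klra9, Klrb1c, Klrg1, Klrk1 and S1pr5), none was lower, and 12 had positive fold changes with a median of 1.83. Klrg1 (chromosome 6, 122270596 to 122282882, minus strand), an inhibitory lectin-like receptor of terminal effector cells, stood at 369, 268 and 244 CPM in the 3 OT-I libraries and 12.2, 8.19 and 0.782 CPM in the 3 marker-low libraries. It was higher in OT-I cells by 5.38 ± 1.00 (adjusted p = 0.00805), or by 6.03 without marker-low 1. Klrb1c, which encodes NK1.1, stood at 679, 314 and 400.1 CPM in OT-I versus 46.5, 39.95 and 41 CPM in marker-low libraries. Klrb1c changed by 3.45 ± 0.44 (adjusted p = 0.000974). S1pr5, a sphingosine phosphate receptor of cells that leave tissue, stood at 24.8, 28.5 and 9.91 CPM in OT-I versus 0.283, 1.8 and 0 CPM in marker-low libraries. S1pr5 changed by 4.91 ± 1.29 (adjusted p = 0.0377). Cx3cr1, the fractalkine receptor, was high in all 3 OT-I libraries at 267, 293 and 295 CPM, but marker-low 2 held 75.8 CPM against 4.39 and 2.29 CPM in the other 2, and the gene was not called (3.38 ± 1.02, adjusted p = 0.0623). Without marker-low 2 its change was 6.46 with an adjusted p of 0.000442, against 0.000442 to 0.154 over the fits without 1 library. The NK cell list did not follow: its 5 genes summed to 29.5 to 56.8 CPM in OT-I and 90.3 to 711 CPM in marker-low libraries, none at 0, and 3 were called lower in OT-I cells (Fcer1g, Fcgr3 and Tyrobp, which myeloid cells also express). The calls of S1pr5 (without OT-I 1, 2 or 3 or marker-low 1), Klrk1 (without OT-I 2 or 3), Fasl (without OT-I 1) and Klra9 (without OT-I 2 or 3 or marker-low 1, 2 or 3) ended when 1 library at a time was left out, with edgeR adjusted p values from 0.0137 to 0.129 over those fits. S1pr5 moved from a log2 fold change of 4.91 to 7.26 without marker-low 2. Klra9 belongs to a family of near-identical genes, so its value is uncertain.

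Of 12 cytotoxic genes 3 were higher in OT-I cells (Gzma, Gzmk and Prf1), none was lower, and the median was 0.58. Prf1, the pore-forming perforin, stood at 1199, 808 and 992 CPM in OT-I versus 474, 376 and 388 CPM in marker-low libraries. Prf1 changed by 1.28 ± 0.26 (adjusted p = 0.0143). Gzmk, a granzyme of memory-like cells, stood at 394, 399 and 437 CPM in OT-I versus 132, 26.2 and 50.5 CPM in marker-low libraries. Gzmk changed by 2.56 ± 0.58 (adjusted p = 0.0221). Gzmb was higher in each OT-I library at 929.6, 899.98 and 739 CPM in OT-I versus 617, 171 and 235 CPM in marker-low libraries but not called (1.33 ± 0.39, adjusted p = 0.0568). Without marker-low 1 Gzmb was called, at 2.08 with an adjusted p of 0.00379, against 0.00379 to 0.157 over the fits without 1 library. Late SV40-I means were above OT-I means, at 2671 against 503 CPM for Gzma and 1391 against 856 CPM for Gzmb. Prf1 (1300 against 1000 CPM) and Gzmk (646 against 410 CPM) had the same order. Marker-high means were above OT-I means for Gzma (2115 CPM) and Gzmb (3195 CPM) and below them for Prf1 (742 CPM) and Gzmk (154 CPM). The calls of Gzma (without OT-I 1, 2 or 3 or marker-low 2 or 3) and Gzmk (without OT-I 2 or 3 or marker-low 3) ended when 1 library at a time was left out, with edgeR adjusted p values from 0.0105 to 0.0823 over those fits. Gzma moved from a log2 fold change of 2.62 to 3.76 without marker-low 1, and Gzmk from 2.56 to 3.42 without marker-low 1.

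Among homing and adhesion genes Cxcr6 and 4 integrin chains were higher in OT-I cells and Cxcr5 was lower. Cxcr6 (chromosome 9, 123806475 to 123811760, plus strand), the receptor for CXCL16 that retains T cells in liver sinusoids, stood at 1328, 1618 and 1464 CPM in the 3 OT-I libraries and 63.8, 44.4 and 69.4 CPM in the 3 marker-low libraries. It was higher in OT-I than in marker-low cells by 4.63 ± 0.54 (adjusted p = 0.00058). Late SV40-I libraries averaged 2657 ± 869 CPM of Cxcr6, above the OT-I mean of 1470 ± 145 CPM. Cxcr5, which guides cells to B cell follicles, was lower at 4.98, 8.28 and 2.66 CPM in OT-I versus 133, 142 and 185 CPM in marker-low libraries. Cxcr5 changed by -4.85 ± 1.04 (adjusted p = 0.0174), and its marker-low libraries lay above all 12 others. These were the only calls among 9 chemokine receptors, with a median of 0.84. Of 11 residency and integrin genes 4 were higher, all of them integrin chains (Itga4, Itgal, Itgb1 and Itgb2), none was lower, and the median was 0.96. Itgb1 (chromosome 8, 128685654 to 128733200, plus strand), the shared beta 1 chain, stood at 195, 401 and 192 CPM in OT-I versus 31.7, 37.9 and 31.7 CPM in marker-low libraries. Itgb1 changed by 2.96 ± 0.45 (adjusted p = 0.00306). Itgal, the alpha chain of LFA-1, rose by 0.96 ± 0.18 (adjusted p = 0.00911), while Cd69, an early activation and residency marker, stood at 97, 158 and 134 CPM in OT-I versus 58.2, 107 and 199.99 CPM in marker-low libraries. Cd69 had a fold change of 0.09 ± 0.48 (adjusted p = 0.93). Of 16 cytokine receptors 2 were higher (Ifngr1 and Il12rb2) and 1 was lower (Il4ra), with a median of 0.46. Il12rb2, a chain of the interleukin 12 receptor, stood at 20.3, 33.8 and 33.1 CPM in OT-I versus 2.13, 1.67 and 2.53 CPM in marker-low libraries. Il12rb2 changed by 3.78 ± 0.62 (adjusted p = 0.00445), and Il4ra changed by -1.12 ± 0.27 (adjusted p = 0.0282). The calls of Cxcr5 (without OT-I 1, 2 or 3), Il4ra (without OT-I 1, 2 or 3 or marker-low 2 or 3), Ifngr1 (without OT-I 1, 2 or 3 or marker-low 1 or 3), Itga4 (without OT-I 3) and Itgb2 (without OT-I 1 or 3 or marker-low 1 or 3) ended when 1 library at a time was left out, with edgeR adjusted p values from 0.0112 to 0.143 over those fits.

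Of 24 cell cycle genes 17 were lower in OT-I cells, none was higher, 22 had negative fold changes, and the median was -2.51. Plk1 (chromosome 7, 122159439 to 122169873, plus strand), a mitotic kinase, stood at 15.4, 14.4 and 17.2 CPM in the 3 OT-I libraries and 173, 164 and 119.7 CPM in the 3 marker-low libraries. The groups were well separated, at -3.28 ± 0.32 (adjusted p = 0.000238). Ccnb2 (chromosome 9, 70407692 to 70421547, minus strand), a cyclin of mitosis, stood at 7.34, 8.38 and 14 CPM in OT-I versus 271, 109.5 and 201 CPM in marker-low libraries. Ccnb2 changed by -4.29 ± 0.44 (adjusted p = 0.000273). Cdk1, the kinase that this cyclin activates, changed by -2.60 ± 0.45 (adjusted p = 0.00549), and the helicase subunit gene Mcm5 by -1.66 ± 0.32 (adjusted p = 0.00911). Mki67 and Top2a, often used as division markers, were not called (adjusted p = 0.763 and 0.958). Mki67 was low throughout, at 0.0238, 1.03 and 0.929 CPM in OT-I versus 2.62, 0.195 and 0.947 CPM in marker-low libraries. Top2a stood at 2.98, 8.53 and 17.9 CPM in OT-I versus 6.27, 6.99 and 14.6 CPM in marker-low libraries. Top2a did not fall with the called genes, at a log2 fold change of 0.08 ± 0.69. Its OT-I mean of 9.82 CPM was near the 9.91 CPM of Ccnb2. OT-I means were near the late SV40-I means, at 15.7 ± 1.4 and 21 ± 5.64 CPM for Plk1, and above the naive mean of 3.01 ± 0.632 CPM. The call of Mcm5 (without OT-I 2) ended when 1 library at a time was left out, with edgeR adjusted p values from 0.018 to 0.0657 over those fits.

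The promoters of Plk1 and Ccnb2, the named cell cycle genes, are shown as examples of a list whose members moved together (RefSeq, GRCm38.p6, 5′ to 3′ on the gene's strand). Capitals mark TTTGAA, the CHR element found in promoters of late cell cycle genes, and CCAAT, the binding sequence of the factor NF-Y, each or its reverse complement.
Plk1, chr7:122159185-122159484, plus strand: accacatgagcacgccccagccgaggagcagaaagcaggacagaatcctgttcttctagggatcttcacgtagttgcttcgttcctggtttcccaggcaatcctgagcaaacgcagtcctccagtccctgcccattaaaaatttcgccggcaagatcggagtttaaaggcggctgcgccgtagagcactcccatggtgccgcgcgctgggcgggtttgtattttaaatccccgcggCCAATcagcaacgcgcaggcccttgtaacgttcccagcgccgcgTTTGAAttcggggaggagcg
Ccnb2, chr9:70421505-70421804, minus strand: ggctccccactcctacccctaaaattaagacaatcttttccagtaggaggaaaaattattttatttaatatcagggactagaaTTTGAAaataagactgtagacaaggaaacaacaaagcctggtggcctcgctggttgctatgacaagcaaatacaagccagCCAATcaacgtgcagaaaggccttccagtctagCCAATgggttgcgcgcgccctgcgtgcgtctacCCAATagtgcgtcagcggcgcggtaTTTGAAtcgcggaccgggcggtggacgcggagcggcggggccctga
Plk1 held 1 match of each motif, and Ccnb2 held 2 of TTTGAA and 3 of CCAAT, with no overlap between motifs. Of the 17 called genes 15 had entries, and 7 of their 16 windows (43.8%) held TTTGAA against 17.9% of all 32851 windows. CCAAT was in 13 of the 16 (81.2%) against 37.4% of all windows. A match is a run of letters and not evidence of binding.

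Glycolytic enzymes were lower in part. Of 15 such genes 7 were lower in OT-I cells (Gapdh, Hk2, Ldha, Pgam1, Pgk1, Pkm and Tpi1), none was higher, and the median was -0.60. Tpi1, triose phosphate isomerase, stood at 225, 167 and 274 CPM in OT-I versus 861, 680.4 and 784 CPM in marker-low libraries. Tpi1 changed by -1.80 ± 0.28 (adjusted p = 0.00323). Pgam1, phosphoglycerate mutase, stood at 41.6, 33.2 and 36.7 CPM in OT-I versus 123, 95 and 106 CPM in marker-low libraries. Pgam1 changed by -1.53 ± 0.28 (adjusted p = 0.00754). Of 17 nuclear genes of oxidative phosphorylation only Atp5b was called, lower by a smaller amount (-0.74 ± 0.17, adjusted p = 0.0218), with 15 negative and a median of -0.62, beside Uqcrc1 at -0.50 ± 0.14 (adjusted p = 0.0534). The calls of Pgam1 (without OT-I 2), Atp5b (without OT-I 2 or 3 or marker-low 1, 2 or 3), Gapdh (without OT-I 1, 2 or 3 or marker-low 1 or 3), Hk2 (without OT-I 2 or 3 or marker-low 2), Ldha (without OT-I 1 or 2 or marker-low 1), Pgk1 (without any 1 library) and Pkm (without OT-I 2 or marker-low 2) ended when 1 library at a time was left out, with edgeR adjusted p values from 0.0115 to 0.205 over those fits. Hk2 moved from a log2 fold change of -2.22 to -1.60 without marker-low 2. Of 13 sterol genes Fdps, a synthase of the pathway, stood at -0.63 ± 0.24 (adjusted p = 0.115), and the list median was -0.30.

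Of 13 heat shock and stress genes 2 were higher (Dnaja1 and Txnip), Gadd45b was lower, and the median was 0.33. Txnip, an inhibitor of glucose uptake and of thioredoxin, stood at 3848, 2001 and 3232 CPM in OT-I versus 614, 1339.6 and 993 CPM in marker-low libraries. Txnip changed by 1.62 ± 0.35 (adjusted p = 0.0172). Dnaja1, a cochaperone, changed by 1.77 ± 0.33 (adjusted p = 0.00775). The calls of Txnip (without OT-I 1 or 3 or marker-low 1) and Gadd45b (without OT-I 1, 2 or 3 or marker-low 2) ended when 1 library at a time was left out, with edgeR adjusted p values from 0.0171 to 0.0796 over those fits. No gene was called among 21 interferon response genes, 11 genes of MHC class I and antigen processing and 11 genes of the BCL2 family, with medians of 0.30, 0.27 and -0.35. Their smallest p-values belonged to Ifit3 (1.85 ± 0.53, adjusted p = 0.0513), to Tap2 (0.57 ± 0.19, adjusted p = 0.0897) and Nlrc5 (0.71 ± 0.29, adjusted p = 0.144), and to Bcl2a1b (-1.30 ± 0.46, adjusted p = 0.101) and Pmaip1 (1.83 ± 0.73, adjusted p = 0.133). Bcl2a1b and Pmaip1 were called without marker-low 2, at -1.63 and 2.90 (adjusted p = 0.0386 and 0.0437).

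**Figure D4:**
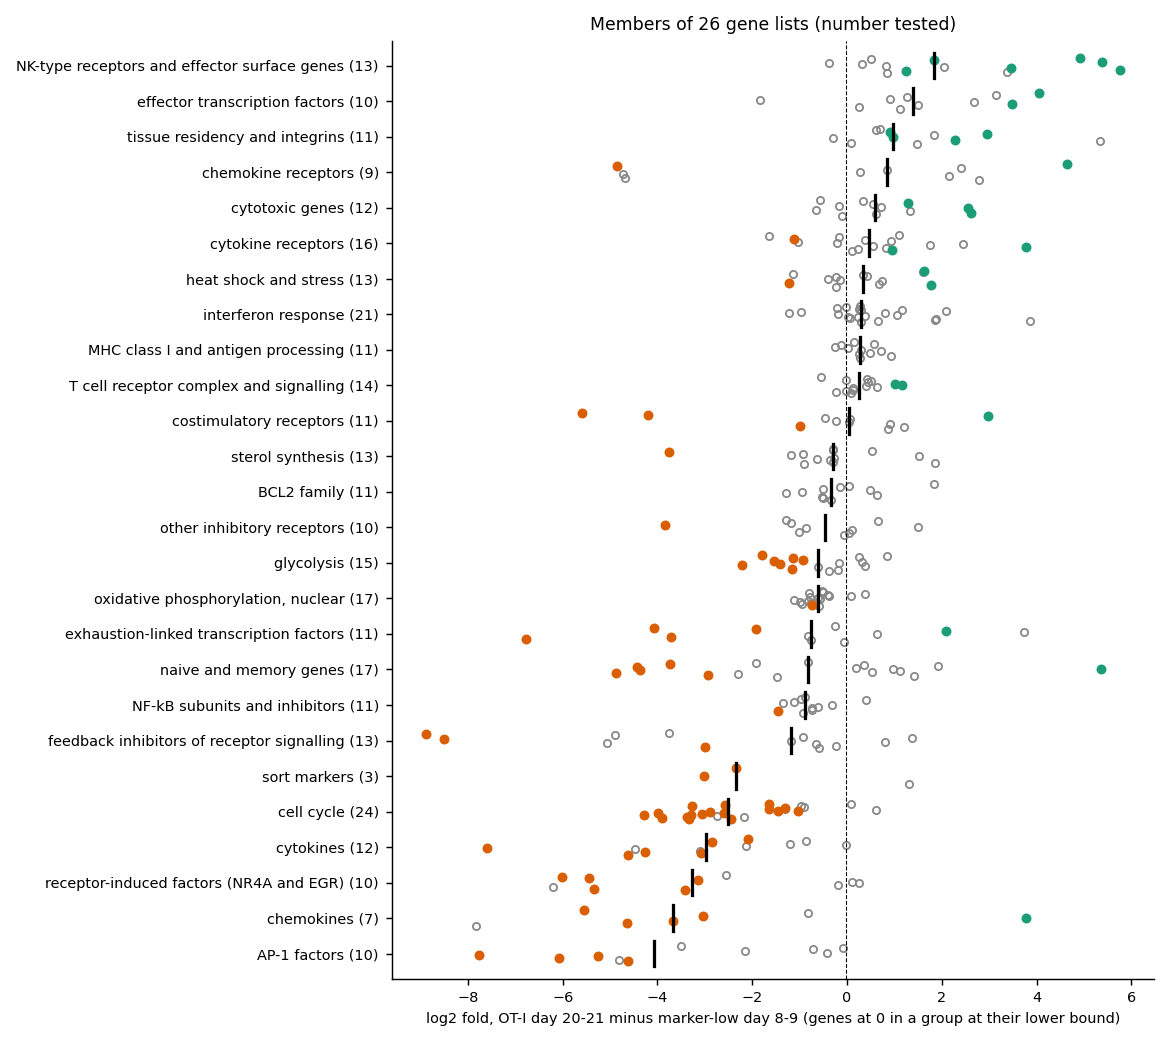
Log2 fold change (OT-I minus marker-low) of the members of each T cell list, with the number tested in parentheses, called genes coloured and the list median marked; a dashed line shows the median of all genes. Cell cycle, cytokine, AP-1 and receptor-induced lists lie to the left with medians between -4.06 and -2.51, and the NK-type list lies to the right at 1.83.

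Among the 10 largest rises with at least 10 CPM and no overlap, Ctse had the smallest p. Ctse (chromosome 1, 131638306 to 131675505, plus strand), the aspartic protease cathepsin E, stood at 769.8, 644 and 639 CPM in the 3 OT-I libraries and 18.3, 30.2 and 15.1 CPM in the 3 marker-low libraries, a change of 5.01 ± 0.34 (adjusted p = 1.96e-05). No SV40-I library reached it, since the 12 ran 11 to 52 CPM. Kcnj8 (chromosome 6, 142564837 to 142571614, minus strand), a subunit of potassium channels gated by ATP, stood at 293, 175 and 218 CPM in OT-I versus 6.89, 9.97 and 6.65 CPM in marker-low libraries. Kcnj8 changed by 4.87 ± 0.59 (adjusted p = 0.000647), and it ran 0 to 9.97 CPM over all SV40-I libraries. Esm1 (chromosome 13, 113209659 to 113218098, plus strand), a secreted proteoglycan known from endothelium, stood at 15.9, 25.3 and 6.999 CPM in OT-I libraries with 1 count in all over the marker-low libraries, a ratio of 2083 (95% counting interval 373 to 82325) (adjusted p = 0.00148). The 10 endothelial and stromal genes summed to 56.3 to 78.1 CPM in OT-I and 171 to 213 CPM in marker-low libraries, most of it Pecam1, which naive libraries held at 212 to 366 CPM. The other 9 summed to 2.62, 5.56 and 8.86 CPM in OT-I and 3.62, 10.4 and 3.21 CPM in marker-low libraries, with 3, 8 and 9 of the 9 detected in OT-I 1, 2 and 3 and 3, 7 and 3 in marker-low 1, 2 and 3. Their part in the level of Esm1 was not tested. Ptpn4, a tyrosine phosphatase, stood at 11.2, 15.1 and 28.9 CPM in OT-I versus 0.0257, 0.391 and 1.24 CPM in marker-low libraries. Ptpn4 changed by 5.05 ± 1.31 (adjusted p = 0.036). Spats2 stood at 19.2, 19.9 and 30.7 CPM in OT-I versus 0, 0.803 and 0 CPM in marker-low libraries. Spats2 changed by 6.41 ± 1.48 (adjusted p = 0.023). Mup20, a major urinary protein that hepatocytes secrete, stood at 0.476, 30.2 and 82 CPM in OT-I versus 0.128, 0.195 and 0 CPM in marker-low libraries and followed the hepatocyte sums of 17.5, 925 and 1708 CPM (8.42 ± 2.38, adjusted p = 0.0495). Cxcr6, Il7r, Klrg1 and S1pr5 completed these 10. The calls of Mup20 (without OT-I 2 or 3 or marker-low 1, 2 or 3), Ptpn4 (without OT-I 1, 2 or 3 or marker-low 1 or 2) and Spats2 (without OT-I 2 or 3 or marker-low 1) ended when 1 library at a time was left out, with edgeR adjusted p values from 0.00341 to 0.144 over those fits. Mup20 moved from a log2 fold change of 8.42 to 7.13 without OT-I 3 or 9.27 without marker-low 2 or 7.83 without marker-low 3, Ptpn4 from 5.05 to 6.43 without marker-low 3, and Spats2 from 6.41 to 5.83 without marker-low 3. Without marker-low 2 no count of Spats2 was left in the marker-low group, and its fitted value of 13.01 depends on the prior count.

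Among the 10 largest falls, 2 genes had no counts in OT-I libraries. Cxcl2 (chromosome 5, 90903871 to 90905938, plus strand), a chemokine for neutrophils that macrophages make, stood at 19.6, 54.7 and 5.58 CPM in marker-low libraries. It was at least 1135-fold lower in OT-I cells (adjusted p = 0.00778). Its marker-low levels had the order of the macrophage sums of 2148, 8843 and 726 CPM. The hepatocyte, neutrophil, dendritic and NK cell sums had that order too. In marker-high libraries, with macrophage sums of 6021, 4039 and 4787 CPM, Cxcl2 stood at 18.2, 15.2 and 6.13 CPM. The source of Cxcl2 was not tested. Crabp2 (chromosome 3, 87948666 to 87953376, plus strand), a retinoic acid carrier, stood at 21.8, 9.01 and 9.66 CPM, at least 554-fold lower (adjusted p = 0.0184). Slc9b2, a sodium and proton exchanger, stood at 37.9, 34.6 and 34.6 CPM in marker-low libraries and at 0, 0 and 0.0216 CPM in OT-I libraries, lower by a ratio of 4549 (95% counting interval 816 to 179732) (adjusted p = 0.00304). Trpm1 (chromosome 7, 64153835 to 64269775, plus strand), a cation channel known from retina and pigment cells, stood at 0.0238, 0 and 0.0216 CPM in OT-I versus 43.6, 28.9 and 53.7 CPM in marker-low libraries, a ratio of 2700.3 (95% counting interval 747 to 22303) (adjusted p = 0.000122). Fut10 (chromosome 8, 31187331 to 31261738, plus strand), a member of the fucosyltransferase family, stood at 0.0476, 1.11 and 0.302 CPM in OT-I versus 314, 146 and 245 CPM in marker-low libraries. Fut10 changed by -8.93 ± 0.79 (adjusted p = 0.000102). Without OT-I 2 the change of Fut10 was -10.27. Fut10 was high in all 12 SV40-I libraries, naive ones included, at 131 to 571 CPM, and Trpm1 ran 3.6 to 53.7 CPM over the same libraries, so every SV40-I library, and not the marker-low ones alone, lay above the OT-I libraries for them. Fosl1, an AP-1 gene, stood at 0, 0.227 and 0.0432 CPM in OT-I versus 14.9, 22.1 and 22.9 CPM in marker-low libraries. Fosl1 changed by -7.77 ± 2.14 (adjusted p = 0.0446). Lad1 stood at 0, 0.327 and 0.0432 CPM in OT-I versus 34.3, 75.3 and 33.9 CPM in marker-low libraries. Lad1 changed by -8.60 ± 2.02 (adjusted p = 0.0245). Ugt1a7c, a glucuronosyltransferase that shares exons with its neighbours and is thus uncertain, stood at 0, 0 and 0.281 CPM in OT-I versus 7.56, 43.1 and 0.885 CPM in marker-low libraries (-7.42 ± 1.90, adjusted p = 0.0337). Within the marker-low group this was the order of the macrophage sums, and also of the hepatocyte, neutrophil, dendritic and NK cell sums. Late SV40-I libraries, with macrophage sums of 61.2, 1103 and 919 CPM, held 52.1, 47.3 and 24.9 CPM of Ugt1a7c. Marker-high libraries, with sums of 6021, 4039 and 4787 CPM, held 17.5, 16.9 and 28.4 CPM. The source of Ugt1a7c was not tested. The calls of Crabp2 (without OT-I 2 or 3), Fosl1 (without any 1 library), Lad1 (without OT-I 1, 2 or 3) and Ugt1a7c (without OT-I 1, 2 or 3 or marker-low 1 or 2) ended when 1 library at a time was left out, with edgeR adjusted p values from 0.0251 to 0.143 over those fits. Fosl1 moved from a log2 fold change of -7.77 to -9.57 without OT-I 2, Lad1 from -8.60 to -10.83 without OT-I 2, and Ugt1a7c from -7.42 to -6.81 without OT-I 2 or -5.33 without marker-low 2. Without OT-I 3 no count of Ugt1a7c was left in the OT-I group, and its fitted value of -12.56 depends on the prior count.

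Of other called genes, chosen after their values were seen, 4 lower in OT-I cells are given. Izumo1r, which encodes folate receptor 4, stood at 0.31, 4.56 and 2.29 CPM in OT-I versus 256, 150.3 and 199 CPM in marker-low libraries. Izumo1r changed by -6.40 ± 0.71 (adjusted p = 0.000394), or by -7.19 without OT-I 2. Cd200, a ligand that restrains myeloid cells, stood at 1.81, 0.856 and 1.99 CPM in OT-I versus 103, 179 and 116 CPM in marker-low libraries. Cd200 changed by -6.41 ± 0.90 (adjusted p = 0.00172). Itm2a, a membrane protein induced in T cell activation, stood at 70.7, 61.5 and 97.3 CPM in OT-I versus 671, 464 and 946 CPM in marker-low libraries. Itm2a changed by -3.18 ± 0.35 (adjusted p = 0.000364). The xenobiotic epoxide hydrolase gene Ephx1 stood at 18.6, 32.9 and 36.7 CPM in OT-I versus 453, 314 and 453 CPM in marker-low libraries (-3.79 ± 0.29, adjusted p = 4.00e-05), beside 348 ± 46.7 CPM in naive libraries.

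The other 9 ex vivo libraries, all of SV40-I cells, show which group stood apart from the rest. OT-I libraries were the only ones of their line. Standing apart thus cannot separate line and receptor from the state of the cells. All 3 OT-I libraries were above all 12 SV40-I libraries in 293 of the tested genes (1.8%), and these held 108 of the 522 genes called higher (20.7%). They were below all 12 in 175 genes (1.08%), which held 96 of the 670 called lower (14.3%). The marker-low libraries were above the 12 others in 178 genes (1.1%), which held 68 of the 670 (10.1%), and below them in 81 genes (0.499%), which held 43 of the 522 (8.24%). Only 5 genes met a condition of each side at once, namely Cldn10, Itm2a, Qdpr, Rap2c and Spats2. OT-I cells were set apart from every SV40-I library by Ctse, Kcnj8 and Klrg1 on the high side and by Fut10 and Cd200 on the low side, as the level ranges show. Cd200 ran 0.856 to 1.99 CPM in OT-I and 3.11 to 182 CPM in SV40-I libraries, and Klrg1 244 to 369 and 0 to 12.2 CPM. Marker-low libraries were above the 12 others for Nr4a1, Egr2 and Nfkbid of the 5 called receptor-induced factors, and for Irf4, Tnf, Ifng, Xcl1, Fos and Spry1. Egr1 and Nr4a2 were not, since Egr1 ran 25.7 to 37.7 CPM in marker-low and 9.57 to 47.7 CPM in late SV40-I libraries, and Nr4a2 5.71 to 7.6 and 18.7 to 45.1 CPM. Egr2 ran 311 to 481 CPM in marker-low and 6.24 to 108 CPM in the others, and Xcl1 430.1 to 772 and 0.19 to 322 CPM. These shares used the libraries that also entered the calls and are descriptions.

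**Figure D5:**
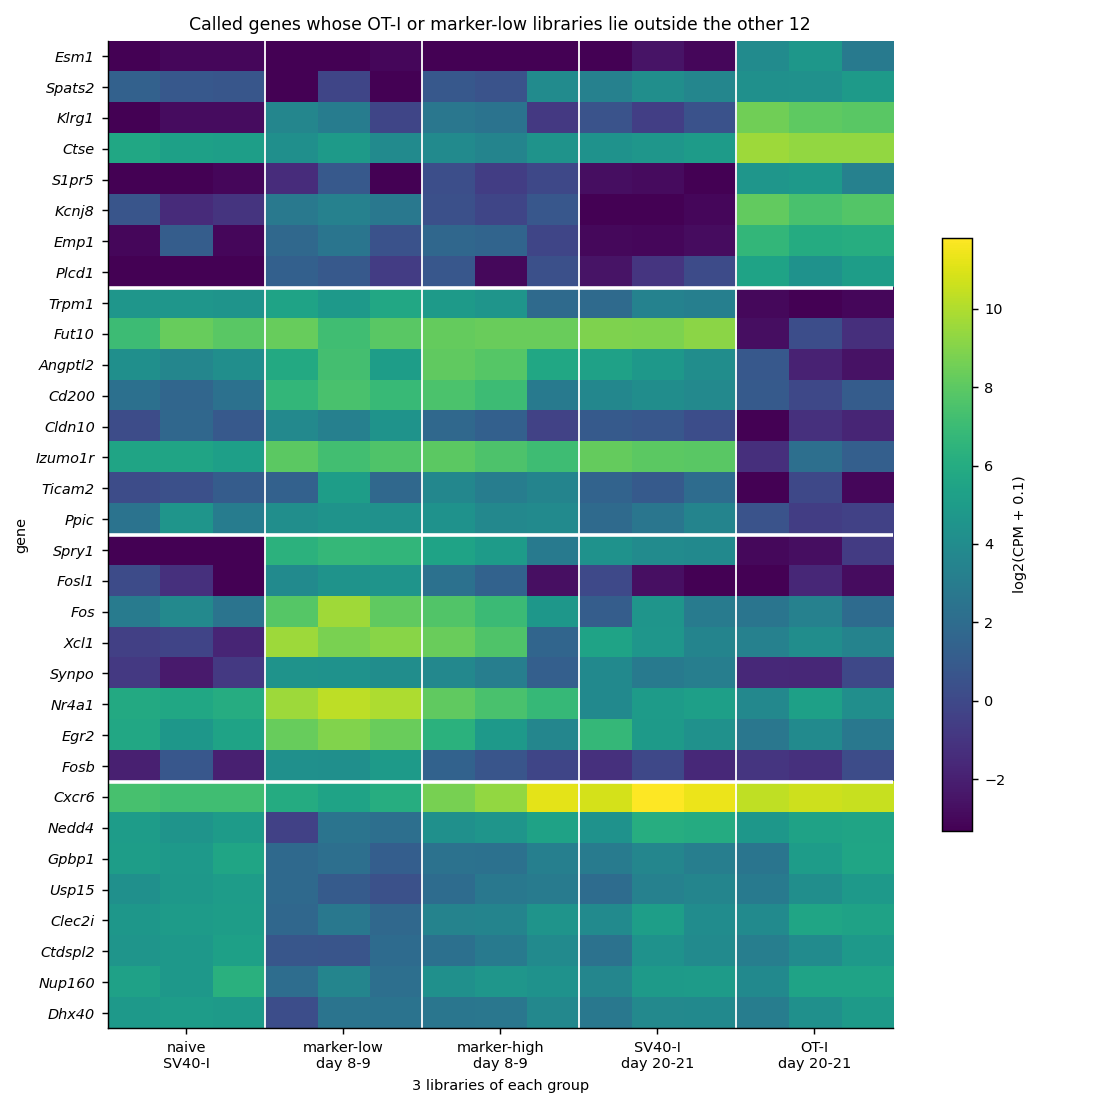
Level (colour, log2 of CPM + 0.1) of called genes with at least 10 CPM in the 15 ex vivo libraries, for the largest changes of each of 4 patterns: OT-I above or below all 12 SV40-I libraries, and marker-low above or below the 12 others. Vertical lines separate groups of 3 libraries and horizontal lines separate patterns; Ctse (mean 684 ± 74.1 CPM in OT-I) and Nr4a1 (mean 1009 ± 260.2 CPM in marker-low) are examples.

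The number of calls depended on the libraries kept. Leaving out 1 library at a time gave 429 to 940 calls in place of 1192, and of 95 called genes named by the rule or as further examples 47 kept their call without any 1 library. Without OT-I 2 and 3, the hepatocyte-rich libraries, OT-I 1 alone stood for its group and was assumed to vary like the other groups. Calls within lists are therefore not given for that fit. Without marker-low 2 as well, fold changes were negative for 22 of 24 cell cycle, 8 of 10 receptor-induced, 6 of 7 chemokine and 2 of 13 NK-type genes. In the main fit 8280 of all 16247 genes were negative. Without marker-low 2 alone, 940 of all 17235 genes tested were called, with 15 of 24 cell cycle, 5 of 10 receptor-induced, 4 of 12 cytokine and 6 of 13 NK-type genes. All 1192 genes kept their sign in each of these fits. For the 1178 whose libraries did not overlap between the groups, leaving out libraries could hardly reverse the sign, so this does not measure stability.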

How the data were processed

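Raw fragment counts per gene were deposited. Per the file headers, the authors ran featureCounts 1.6.2 on read pairs with GENCODE M17 (GRCm38.p6) and no strand option, and added counts up by gene name. Reads of overlapping or antisense genes could therefore not be told apart. STAR, FastQC and DESeq2 appear in the submitters' processing notes without versions. RNA was amplified with SMART-Seq v4, per the labels' protocols, without molecular identifiers, so intervals and bounds cover counting error only. Each table lists 53656 genes, and 5 of the names join loci of different chromosomes or strands.

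From these counts, 260 T cell receptor segments were left out, and 16247 genes passed edgeR's filterByExpr. The 15 ex vivo libraries (37006508 to 54195918 counts) were fitted together with 1 coefficient per group in edgeR 4.0.16 under R 4.3.3 (TMM, robust quasi-likelihood F tests, Benjamini-Hochberg adjustment over all genes, called under 0.05). DESeq2 1.42.0 was an alternative. The fit was tested on simulated data. Log2 fold changes are OT-I minus marker-low with standard errors derived from the F statistics. Other ± values are standard deviations between 3 libraries. Fitted fold changes of named called genes that leaving out 1 library moved by over 1.5 times are printed with that library. A gene at 0 counts over a group is given as a bound against 3 counts over that group, and 1 to 3 counts as a ratio with its 95% interval. Libraries of a group differed beyond sampling noise (98.3 to 438 in chi-square per degree of freedom), so none were merged. At these depths 3 counts in 1 of the 6 libraries equal 0.0618 to 0.0771 CPM.

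Genes named are Tox, Pdcd1, Lag3 and Entpd1, the 2 members of each T cell list with the smallest p, and the 10 largest rises and 10 largest falls among called genes with a mean of 10 CPM or more on the higher side and no overlap, leaving out markers of other cells, clone-named and numbered loci and pseudogenes. Results of a few genes the rule picked are not reported here. Further list members and genes were chosen after their values were seen. The comparison, the 26 T cell lists and the lists of other cells were chosen with earlier results of these data known, so no list was tested. Of these other-cell lists the results above give the hepatocyte, macrophage, erythroid and platelet, NK cell, and endothelial and stromal sums. B cell genes summed to 71.8 to 101 CPM in OT-I and 88.1 to 138 CPM in marker-low libraries. In the same order, CD4 and regulatory T cell genes summed to 36.2 to 45.1 and 14.2 to 62.8 CPM. Dendritic genes summed to 12.3 to 19.4 and 2.7 to 111 CPM, and endothelial and stromal genes to 56.3 to 78.1 and 171 to 213 CPM. Neutrophil genes summed to 222, 73.6 and 540 CPM in OT-I and 306, 1688 and 117 CPM in marker-low libraries. Promoter windows are from RefSeq on GRCm38.p6, the build of the counts. Alternatives were other scalings, filters, tools, covariates, a replicate block and leaving out libraries.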

Additional observations from a re-analysis of the deposited data

Results flagged for a closer look

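Receptor segments were left out of the comparison. In these left-out data Trbv12-1, a T cell receptor beta variable segment, averaged 165 ± 10.2 CPM (SD, n = 3) in OT-I libraries, at 171, 153 and 170.1 CPM, and the naive SV40-I libraries reached at most 0.558 CPM. Marker-low libraries held 1.46, 0.586 and 0.659 CPM. Trbv29, the abundant segment of SV40-I cells, stood at 2.31, 2.09 and 2.27 CPM in OT-I and 4309, 1327 and 3381 CPM in marker-low libraries.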

How the results depend on the processing

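Against 522 genes higher and 670 lower, DESeq2 called 1414 and 1477. With the summed hepatocyte genes as a covariate edgeR called 168 higher and 457 lower, and with the erythroid and platelet sum 53 and 176. That sum did not overlap between OT-I and marker-low libraries. With the macrophage sum (chosen after seeing the data) 568 and 460 were called. Leaving out 1 library gave 164 to 443 higher and 248 to 497 lower. Leaving out OT-I 2 and 3 gave 27 and 43, and leaving out marker-low 2 as well gave 23 and 38 (both chosen after seeing the data, with fewer samples). Counts under the other scalings, filters and gene sets stayed within 1.5 times. All 1192 genes kept their sign wherever they were tested, but 1178 had no overlap between the groups, so leaving out libraries could hardly reverse it. Higher genes made up 43.8% of calls, or 45.4 and 47.6% with RLE and upper-quartile scaling, 26.9% with the hepatocyte and 23.1% with the erythroid covariate. Of 95 called genes named, 17 kept their call under every alternative, among them Tnfrsf9, Nfkbid, Nr4a1, Ccnb2, Ccl4, Ctse and Cxcr6. Calls lost numbered 26 with the hepatocyte, 51 with the erythroid and 22 with the macrophage covariate, and 74 and 76 without the 2 and 3 libraries. Why calls were lost in the covariate fits was not tested.

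The replicate number as a block gave 694 higher and 612 lower, 1038 of the 1192 shared in direction. Deviations of same-numbered libraries correlated at 0.1, 0.0747 and -0.0956, and not every library correlated best with its own number, so the numbers were not taken to pair the samples. The 6 libraries alone, with fewer degrees of freedom, gave 464 and 477. With 3 libraries a group and depths of 37006508 counts or more, the spread between libraries limits precision more than depth does, except for genes near 0 in a group.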

Other observations

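The constant segment of the gamma delta receptor's delta chain, Trdc, stood at 284, 302 and 266 CPM in OT-I libraries and at 11.9, 11.9 and 9.8 CPM in marker-low libraries. Naive SV40-I libraries held 258, 297 and 279 CPM of Trdc, close to OT-I cells, late SV40-I libraries held 89.7, 114 and 128 CPM, and marker-high libraries 8.45, 11.7 and 73.3 CPM. Trac, the constant segment of the alpha chain, stood at 1468, 1350.2 and 1437 CPM in OT-I and 6174, 2858 and 5837 CPM in marker-low libraries. Marker-low 2, with the highest macrophage sum, held the least Trac and Trbv29 of its group. Neither segment entered the tests.

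The share of counts from mitochondrially encoded genes was 0.233, 0.319 and 0.279% in OT-I libraries and 0.214, 0.15 and 0.221% in marker-low libraries, and whether this share bears on any gene was not tested.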
